A study of Mus musculus with 90 samples.

Results

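The Rab GTPases are described here in RAW 264.7 cells, an established mouse macrophage line, after inflammatory stimulation. Members were the probes of the deposited matrix whose single annotated symbol was Rab followed by a digit, whatever their values. They comprised 61 probes of 43 genes among 16281 probes. Of these, 56 probes of 41 genes gave a value in at least 2 of 3 sets in every condition and were tested among 11600 features (genes, or probes without a gene name). Rab30 and Rab36 were the members not tested. Rab11fip1, Rab5if, Rab10os and Rab7-ps1 were left out because their symbols go on past the letter of a Rab gene.

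Rab proteins are small GTPases that act as switches of vesicle traffic. In the GTP-bound form each sits on a particular organelle membrane and recruits effectors that move, tether or fuse vesicles. Exchange factors load GTP, GTPase-activating proteins end the signal, and prenyl groups added to the C-terminus anchor the protein in the membrane. In macrophages they direct the maturation of phagosomes, the recycling of receptors and the secretion of cytokines and granules.

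Cells were treated with lipopolysaccharide (LPS, 100 ng/ml, listed with 100 pM lipid binding protein), the cytokine interferon gamma (IFG, 5 nM), the ATP analogue 2-methyl-thio-ATP (2MA, 500 µM), LPS+IFG or LPS+2MA. The labels of both combinations give the same LPS dose and do not list the lipid binding protein. Each treatment lasted 1, 2 or 4 h, and its RNA was hybridized against RNA of time-matched cells kept in medium on dual-colour Agilent oligonucleotide arrays. Each of the 15 conditions had 3 numbered sets with both dye orientations, which makes 90 arrays and 45 replicates. Whether a set was a culture of its own, and whether treatments shared control RNA, is not given, so p-values measure the spread between these samples, which may be technical. Cells of one line were used throughout, so the values describe this line.

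Each value is the mean over 3 sets ± SD of the log2 ratio, treated to untreated, so that 1 is a 2-fold rise. The direction of the ratio is likely and not stated: with treated RNA taken as the numerator, 7 of 7 measured LPS target genes rose after 4 h of LPS. A ratio holds no level, so genes cannot be ranked by abundance, and the macrophage identity of the cells could not be checked from marker levels. Of the measured markers of other cell types, 0 of 6 T cell, 1 of 5 B cell, 0 of 6 fibroblast and 0 of 6 epithelial genes rose after 4 h of LPS+IFG, and none of these fell. A member is called where limma's two-sided moderated test gave an adjusted p under 0.05 over all 11600 features. In bulk RNA less of a transcript per cell and fewer cells that hold it cannot be told apart.

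Rab genes responded to LPS and its combinations, and most at 4 h. In total 23 of 41 (56.1%) were called in at least 1 of 15 conditions, beside 48.3% of all features, so the share was near the background. With a 2-fold difference required as well, 5 were called (Rab20, Rab12, Rab19, Rab32 and Rab4a), beside 9.78% of features. Of the 23, 13 were higher wherever they were called, 9 were lower, and Rab13 was higher in some conditions and lower in others. Of the 107 called values behind these counts, 60 were called without any 1 of their sets and 47 were lost without at least 1. In 20 of the 107, from Rab3a, Rab3d, Rab8a and Rab27a, the probes of the gene lay on both sides of 0, as described below.

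LPS raised 2 and lowered 1 of 41 at 1 h (background 5.4% of features), raised 3 and lowered 3 at 2 h (15.4%), and raised 10 and lowered 6 at 4 h (28%). The 10 and the 6 at 4 h stand beside 12.5% of all features higher and 15.5% lower. LPS+IFG raised 3 and lowered 4 at 1 h (7.26%), raised 7 and lowered 3 at 2 h (20.3%), and raised 14 and lowered 8 at 4 h (33.4%, made up of 14.9% higher and 18.5% lower). LPS+2MA raised 2 and lowered 1 at 1 h (5.36%) and raised 4 and lowered 5 at 2 h (17.2%). At 4 h it raised 13 and lowered 7 (32.8%, made up of 14.7% higher and 18.1% lower). At 4 h of these treatments the share of Rab genes called was above that of all features, and higher calls outnumbered lower ones among Rab genes but not among all features. Over the 3 conditions of 4 h that held LPS, 16 Rab genes were called in each. The share of all features called in all 3 was not computed, so this count has no background beside it.

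IFG alone raised 1 of 41 at 1 h (1.07%), raised 3 and lowered 1 at 2 h (3.28%), and raised 5 and lowered 1 at 4 h (11.8%). 2MA alone called 0 Rab genes at 1, 2 and 4 h in limma (background 1.27%, 1.23% and 1.84%), with 8, 1 and 4 at an unadjusted p under 0.05. Over the 15 conditions the median of the 41 genes stayed between -0.09 (LPS at 2 h) and 0.12 (LPS+IFG at 4 h), beside -0.01 for all features in both conditions.

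**Figure D1:**
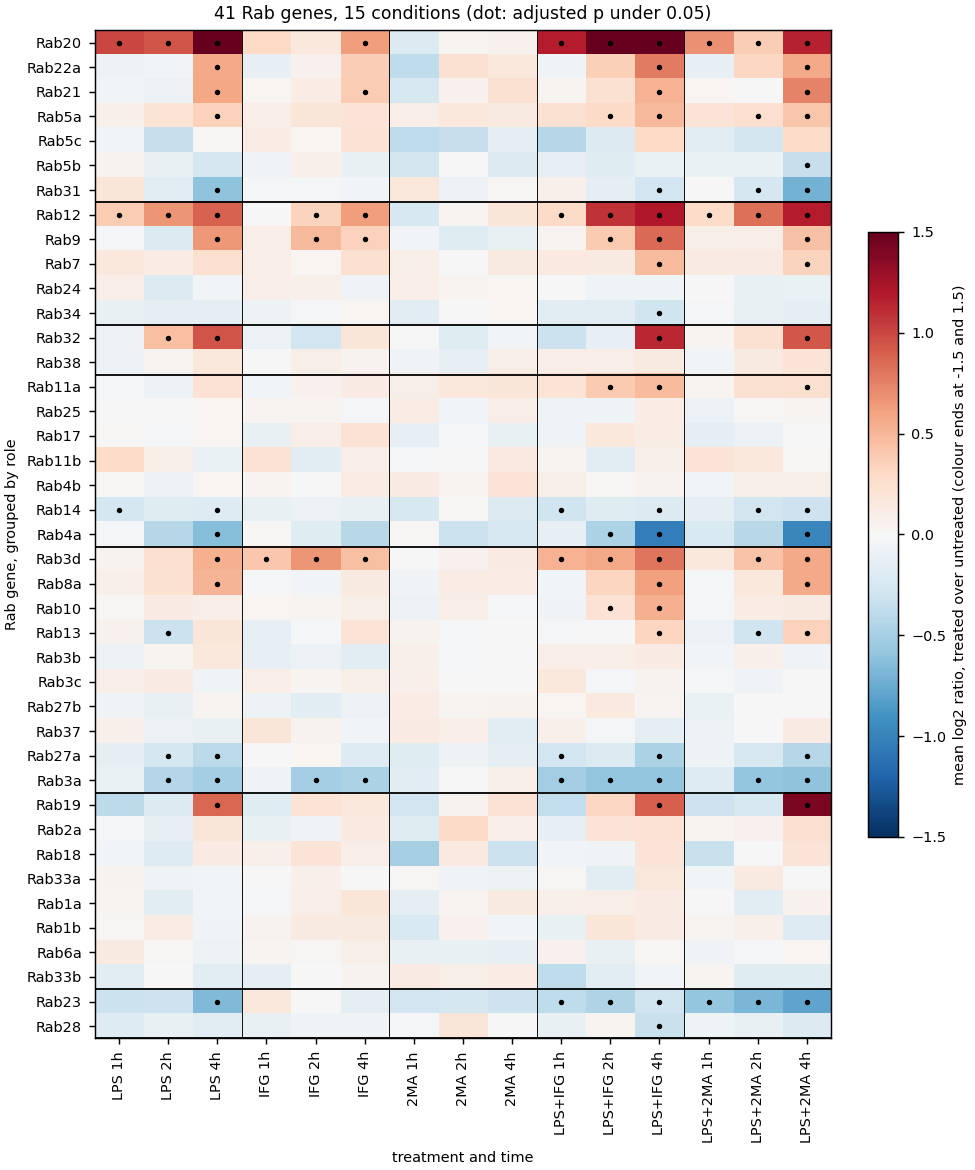
Mean log2 ratio of treated over untreated RNA (colour, saturating at 1.5 above and below 0) for 41 Rab genes (rows, grouped by role, black lines between roles) in 15 conditions (columns), with a dot where limma's adjusted p was under 0.05. Dots gather in the 4 h columns of LPS, LPS+IFG and LPS+2MA, and the 2MA columns hold 0.

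**Figure D2:**
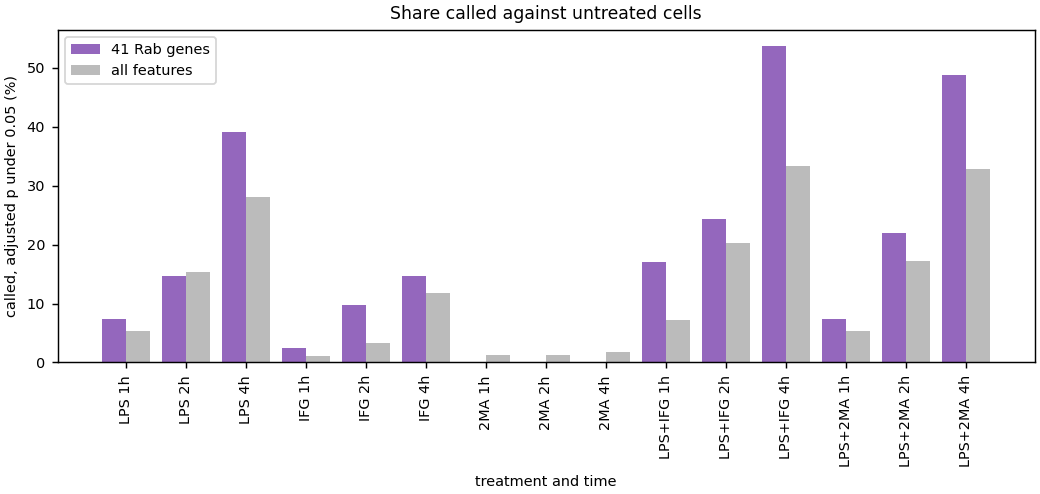
Percent of the 41 Rab genes and of all 11600 features called against untreated cells (bars, limma adjusted p under 0.05) in each of 15 conditions. At 4 h of LPS+IFG the bars stand at 53.7% and 33.4%, and at 4 h of LPS+2MA at 48.8% and 32.8%.

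Among Rabs of early endosomes and phagosomes, 6 of 7 genes were called in at least 1 condition (48.3% of all features), and Rab20 had the largest rise of the family. Rab20 acts on early endosomes and in the maturation of phagosomes. After 4 h of LPS its sets stood at 2.24, 2.13 and 1.44 and after 4 h of LPS+IFG at 2.88, 2.51 and 2.53, so each set of the combination lay above each set of LPS. The means were 1.94 ± 0.43 and 2.64 ± 0.21, which are 3.82-fold and 6.23-fold over untreated cells (limma adjusted p = 4.34e-15 and 4.04e-19).

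Rab20 rose early. At 1 h of LPS its sets already stood at 1.05, 0.89 and 1.08, and at 2 h at 1.12, 1.13 and 0.60. With LPS+IFG they stood at 1.17, 1.14 and 1.22 at 1 h and at 2.14, 1.38 and 1.47 at 2 h. With LPS+2MA they stood at 0.89, 0.45 and 0.71 at 1 h, at 0.62, -0.04 and 0.51 at 2 h and at 1.14, 1.09 and 1.22 at 4 h, and of these times the difference from LPS was called at 4 h.

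At 2 h of LPS+2MA 1 Rab20 set lay on the other side of 0. The mean of 0.36 ± 0.35 passed narrowly (limma adjusted p = 0.0434) and was lost without set 1 (0.23) or set 3 (0.29), and in a fit with the set number as a replicate block (limma adjusted p = 0.0915). IFG alone raised Rab20 at 4 h, with sets at 0.48, 0.67 and 0.72 (limma adjusted p = 0.00049). That call was lost in the arrays with treated RNA in Cy5 (0.31), as was the rise of 0.68 at 1 h of LPS+2MA (0.36). Both probes of Rab20 had the same sign in each called condition.

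Rab5a, which drives fusion of early endosomes, rose by less: 0.35 ± 0.06 with LPS, 0.49 ± 0.15 with LPS+IFG and 0.41 ± 0.07 with LPS+2MA at 4 h. Its rises with LPS and LPS+2MA were lost with treated RNA in Cy3 alone (0.24 and 0.29). Rab21, which carries integrins through early endosomes, rose at 4 h with LPS (0.58 ± 0.07), IFG (0.38 ± 0.17), LPS+IFG (0.53 ± 0.34) and LPS+2MA (0.75 ± 0.10). The rise of Rab21 with IFG was lost without set 1 (0.36) or set 3 (0.31) and with the replicate block (limma adjusted p = 0.0542), and that with LPS+IFG without set 1 (0.33). The Rab21 rise with IFG was also lost with treated RNA in Cy3 alone (0.23), and that with LPS+IFG in Cy5 alone (0.32). Rab22a, which sorts cargo from early to recycling endosomes, rose at 4 h to 0.57 ± 0.33, 0.78 ± 0.35 and 0.57 ± 0.37 with LPS, LPS+IFG and LPS+2MA. The Rab22a rise with LPS was lost without set 1 (0.38), and that with LPS+2MA without set 1 (0.57) or set 3 (0.38). With treated RNA in Cy5 alone both of these were lost (0.23 and 0.33).

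Other genes of the early endosome fell. Rab31, which moves cargo between the trans-Golgi network and endosomes, fell at 4 h to -0.60 ± 0.10 with LPS (n = 2, 1 set without a value), -0.28 ± 0.08 with LPS+IFG and -0.71 ± 0.22 with LPS+2MA. The Rab31 fall with LPS+IFG was lost without set 2 (-0.26) or set 3 (-0.26), and with treated RNA in Cy3 alone (-0.07). Rab5b fell at 4 h of LPS+2MA (-0.35 ± 0.04, limma adjusted p = 0.0156), though 3 of 6 arrays had that sign, the call was lost without any 1 set (-0.36 to -0.33), and the arrays with treated RNA in Cy3 gave 0.04. Rab5c was not called. 

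Of 5 Rabs of late endosomes, lysosomes and autophagy, 4 were called (again beside 48.3%), and Rab12 was the most widely raised member of the family. Rab12 takes part in the delivery of receptors to lysosomes and in autophagy. It was higher in 11 of 15 conditions. After 4 h its sets stood at 0.93, 0.85 and 0.89 with LPS, at 1.34, 0.93 and 1.32 with LPS+IFG and at 1.13, 1.07 and 1.33 with LPS+2MA.

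Those Rab12 means of 0.89 ± 0.04, 1.20 ± 0.23 and 1.17 ± 0.14 are 1.85-fold, 2.29-fold and 2.26-fold (limma adjusted p = 4.41e-11, 1.12e-14 and 1.95e-14). At 2 h its sets stood at 0.91, 0.61 and 0.46 with LPS, at 1.21, 1.05 and 0.99 with LPS+IFG and at 1.00, 0.70 and 0.77 with LPS+2MA. No set fell below 0 in these 6 conditions.

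At 1 h Rab12 was higher with LPS (0.43, 0.34 and 0.36), LPS+IFG (0.38, 0.11 and 0.39) and LPS+2MA (0.42, 0.20 and 0.19). These early rises are less certain. The one with LPS was lost without set 1 (0.35), the one with LPS+IFG without set 1 (0.25) or set 3 (0.24), and the one with LPS+2MA without any 1 of its sets (0.20 to 0.31). The rise with LPS+2MA was also lost with the replicate block (limma adjusted p = 0.0617). IFG alone raised Rab12 at 2 h (0.44, 0.17 and 0.38) and 4 h (0.56, 0.57 and 0.74). The 2 h value was lost without set 1 (0.27) or set 3 (0.31). With 2MA the sets of Rab12 ran from -0.31 to -0.19 at 1 h and from 0.10 to 0.26 at 4 h, and neither mean was called.

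Rab9, which returns receptors from late endosomes to the trans-Golgi network, rose at 4 h with LPS (0.65 ± 0.42), IFG (0.35 ± 0.16), LPS+IFG (0.85 ± 0.33) and LPS+2MA (0.44 ± 0.27). It had risen by 2 h with IFG (0.48 ± 0.10) and LPS+IFG (0.39 ± 0.14). Of these Rab9 values, the ones with LPS and LPS+IFG at 4 h were kept without any 1 set, and the others were lost without 1 set or more (0.29 to 0.50). Rab7, which directs late endosomes to lysosomes, rose at 4 h of LPS+IFG (0.47 ± 0.02) and LPS+2MA (0.33 ± 0.09, lost without set 3 at 0.30). Rab34, which positions lysosomes, fell at 4 h of LPS+IFG (-0.29 ± 0.25, lost without set 1 or 2 at -0.30 and -0.17), and Rab24 was not called.

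Rab32, which builds melanosomes and related lysosome-like organelles, rose in the 3 treatments with LPS. At 4 h its sets stood at 1.16, 0.75 and 0.90 with LPS, at 1.44, 1.03 and 0.93 with LPS+IFG and at 1.03, 0.66 and 1.12 with LPS+2MA. The means were 0.94 ± 0.21, 1.13 ± 0.27 and 0.94 ± 0.24 (limma adjusted p = 1.26e-07, 1.47e-09 and 9.64e-08). The groups overlapped in their sets, and the lowest set stood at 0.66.

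At 2 h Rab32 was higher with LPS (0.70, 0.25 and 0.40), a call lost without set 1 (0.32). With LPS+IFG at 2 h its sets stood at 0.10, -0.31 and -0.15, on both sides of 0. Its close relative Rab38 was not called.

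Rab4a, which returns receptors from early endosomes to the surface, had the largest fall of a gene mean. Single probes of Rab3a and Rab27a, described below, fell further (to -1.24 and -1.10). The Rab4a sets at 4 h of LPS+IFG stood at -1.48, -0.41 and -1.23, at 4 h of LPS+2MA at -0.86, -0.70 and -1.39 and at 4 h of LPS at -0.95, -0.24 and -0.73. The means were -1.04 ± 0.56, -0.98 ± 0.36 and -0.64 ± 0.36 (limma adjusted p = 6.6e-06, 1.78e-05 and 0.00414), which are 2.06-fold, 1.98-fold and 1.56-fold lower. All 9 of these sets were below 0, and set 2 was the nearest to 0 in each condition.

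The fall of Rab4a with LPS at 4 h was lost without set 1 (-0.49). At 2 h of LPS+IFG its sets of -0.80, -0.02 and -0.60 were called narrowly (limma adjusted p = 0.0495), and this was lost without set 1 (-0.31) or set 3 (-0.41). At 2 h of LPS and LPS+2MA the means of -0.43 and -0.41 were called with the replicate block (limma adjusted p = 0.0367 and 0.0415) and not without it.

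Among the other recycling Rabs, 2 were called, which makes 3 of 7 in this group, beside 48.3% of all features. Rab11a, the main GTPase of the slow recycling route, rose with LPS+IFG at 2 h (0.39 ± 0.26) and 4 h (0.48 ± 0.12) and with LPS+2MA at 4 h (0.24 ± 0.08). The 2 h rise of Rab11a was lost without set 2 (0.29), and that with LPS+2MA without any 1 set (0.20 to 0.28) and with the replicate block (limma adjusted p = 0.058). Rab14, which works between early endosomes and the trans-Golgi network, fell in 6 conditions by small amounts, from -0.19 (LPS at 4 h) to -0.31 (LPS+2MA at 4 h), and all but the last of these were lost without 1 set or more. All 6 Rab14 calls were lost with treated RNA in Cy3 alone, the last at -0.11 (limma adjusted p = 0.407). In each of the 6, 1 of the 2 Rab14 probes was called on its own. Rab4b and Rab11b, the near relatives of Rab4a and Rab11a, were not called, and neither were Rab17 and Rab25, which are known from epithelial cells.

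**Figure D3:**
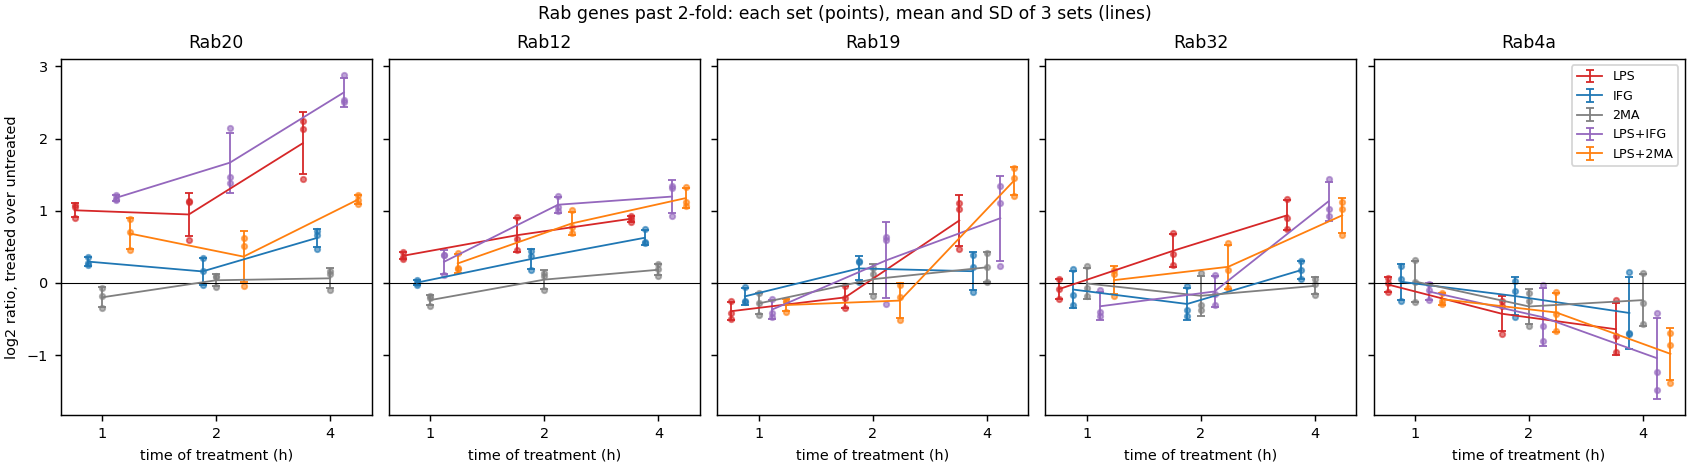
Log2 ratio of treated over untreated RNA (vertical axis) by time of treatment in hours (horizontal axis) for the 5 Rab genes past 2-fold. Points are the 3 sets, lines join means, bars are SD, and colours are the 5 treatments. Rab20 is already raised at 1 h, Rab19 and Rab32 stand higher at 4 h than at 2 h of LPS, and Rab4a falls.

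Rabs of regulated secretion had 6 of 10 genes called, near the 48.3% of all features, and here the probes of a gene disagreed. Of 65 called values against untreated cells from genes with several probes, 20 had probes on both sides of 0. They came from 4 genes: Rab3a and Rab3d (7 each), Rab27a (4) and Rab8a (2). In the other 10 genes with several probes, the probes were never more than 0.45 apart in a condition. The mean of a gene hides this, so each probe is given on its own with p-values adjusted over all probes.

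Rab3d, a GTPase of secretory granules, had opposed probes that are annotated with the same transcript. The sets of one probe stood at 2.17, 2.15 and 1.44 at 4 h of LPS and those of the other at -1.03, -0.79 and -0.75. Their means of 1.92 ± 0.42 (3.78-fold higher) and -0.85 ± 0.15 (1.81-fold lower) both passed (limma adjusted p = 4.66e-12 and 3.1e-09). At 4 h of LPS+2MA they were 2.04 ± 0.16 and -0.91 ± 0.15, and at 4 h of LPS+IFG 1.86 ± 0.32 and -0.25 ± 0.19. In each of these 3 conditions the sets of the probes did not overlap.

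With IFG the first Rab3d probe rose to 0.83 ± 0.20, 1.32 ± 0.05 and 0.78 ± 0.18 at 1, 2 and 4 h, while the second stood at -0.03, 0.01 and 0.12 and was not called. The mean over both probes, as tested for the gene, was 0.53 ± 0.17 at 4 h of LPS and 0.81 ± 0.18 at 4 h of LPS+IFG. It describes neither probe. Which of the probes measures Rab3d was not tested, since probe sequences were not used here.

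Rab3a, a GTPase of synaptic and secretory vesicles, fell by one probe, whose means at 4 h were -1.21 ± 0.39 with LPS, -1.04 ± 0.40 with IFG, -1.22 ± 0.54 with LPS+IFG and -1.24 ± 0.26 with LPS+2MA. The other probe ran from -0.12 to 0.19 over the 15 conditions and was called in 0. The mean of the gene was called in 9 conditions, at most at -0.60 ± 0.18 (LPS+2MA at 4 h). At 1 h of LPS+IFG that mean of -0.52 ± 0.58 rests on sets at -0.30, -1.18 and -0.09, and set 2 had a value from the falling probe alone. Without that set the mean was -0.19 and not called.

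Rab8a, which carries cargo from the trans-Golgi network to the plasma membrane, rose by one probe to 1.12 ± 0.22, 1.15 ± 0.30 and 1.15 ± 0.02 at 4 h of LPS, LPS+IFG and LPS+2MA. Its other probe stood at -0.10, 0.07 and -0.02. Rab27a, which docks secretory granules and lysosome-related organelles at the plasma membrane, fell by one probe to -0.91 ± 0.32, -1.10 ± 0.44 and -0.89 ± 0.37 in the same conditions, while the other stood at 0.13, 0.14 and 0.05. Neither second probe was called in any condition.

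**Figure D4:**
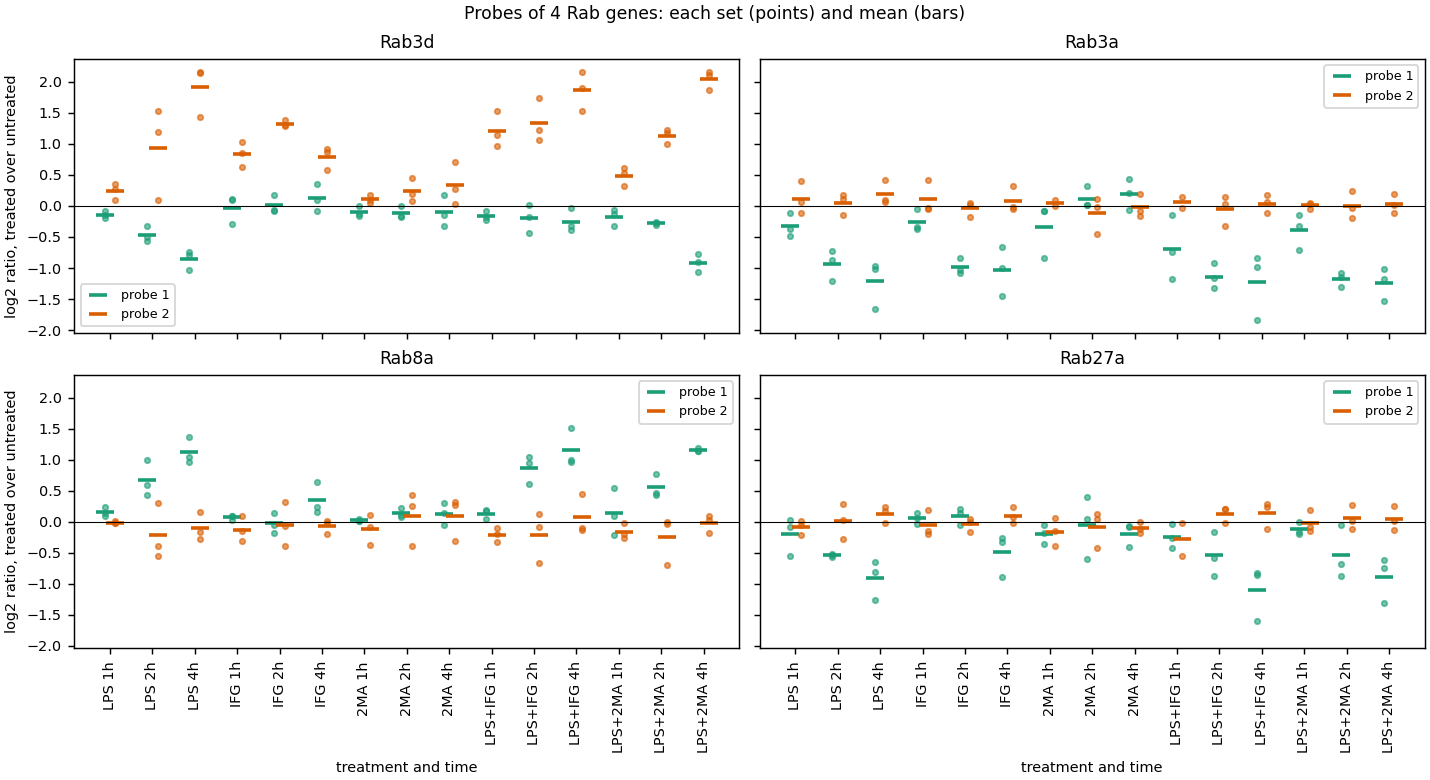
Log2 ratio of treated over untreated RNA (vertical axis) in 15 conditions (horizontal axis) for the probes of Rab3d, Rab3a, Rab8a and Rab27a. Points are sets, bars are means, and colours are the 2 probes of a gene. The Rab3d probes lie at 1.92 and -0.85 after 4 h of LPS, and in the other genes one probe moves while the other stays near 0.

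The remaining secretory Rabs moved less. Rab10, which brings receptors such as TLR4 to the surface, rose with LPS+IFG at 2 h (0.22 ± 0.04) and 4 h (0.53 ± 0.14), and the earlier rise was lost without any 1 set (0.20 to 0.24) and with the replicate block (limma adjusted p = 0.0518). In the arrays with treated RNA in Cy5 the earlier rise of Rab10 stood at 0.08 and was lost. Rab13, known from tight junctions, fell at 2 h of LPS (-0.32 ± 0.24) and LPS+2MA (-0.30 ± 0.20) and rose at 4 h of LPS+IFG (0.32 ± 0.21) and LPS+2MA (0.34 ± 0.07). Each of these 4 Rab13 calls was lost without 1 set or more, both falls were lost with the replicate block (limma adjusted p = 0.0557 and 0.0747), and 3 of the 4 changed sign in 1 dye orientation. With treated RNA in Cy5 alone Rab13 stood at -0.26 (LPS+IFG) and -0.04 (LPS+2MA) at 4 h, and in Cy3 alone at 0.32 at 2 h of LPS+2MA, so its direction depends on the dye. Rab3b, Rab3c, Rab27b and Rab37 were not called.

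Of 8 Rabs of the endoplasmic reticulum, Golgi and secretory route, 1 was called (Rab19), beside 48.3% of all features. Rab19 changed late. After 4 h its sets stood at 1.11, 0.47 and 1.02 with LPS, at 1.11, 0.23 and 1.35 with LPS+IFG and at 1.46, 1.21 and 1.59 with LPS+2MA. The means were 0.86 ± 0.35, 0.90 ± 0.59 and 1.42 ± 0.19 (limma adjusted p = 1.8e-05, 7.19e-06 and 7.84e-10), or 1.82-fold, 1.86-fold and 2.67-fold. Set 2 was the lowest in each.

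At 1 h the Rab19 sets of the same treatments were all below 0, with means of -0.39 ± 0.12, -0.37 ± 0.13 and -0.31 ± 0.09, none of them called. Both Rab19 probes carried the 4 h rises. Rab1a, Rab1b and Rab2a, which run transport between the endoplasmic reticulum and the Golgi, were not called, nor were Rab6a, Rab18, Rab33a and Rab33b.

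Rab23, which restrains Hedgehog signalling at the cilium, fell in 7 conditions. At 4 h its sets stood at -0.62, -0.73 and -0.64 with LPS and at -0.84, -0.89 and -0.65 with LPS+2MA, which gave -0.66 ± 0.06 and -0.79 ± 0.13 (limma adjusted p = 1.48e-05 and 4.45e-07). With LPS+2MA it was already at -0.58 ± 0.21 at 1 h and -0.69 ± 0.29 at 2 h. With LPS+IFG it fell to -0.38 ± 0.04, -0.45 ± 0.15 and -0.30 ± 0.25 at 1, 2 and 4 h, and the first and last of these were lost with the replicate block (limma adjusted p = 0.0637 and 0.0708). Rab23 did not pass the test between LPS+IFG and LPS at any time. All 3 of its values with LPS+IFG were lost without 1 set or more (-0.40 to -0.22). Rab28, also known from cilia, fell at 4 h of LPS+IFG (-0.33 ± 0.20), a call lost without set 2 (-0.22).

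The combinations were set against LPS at the same time. Their labels differ from that of LPS in the second stimulus and in the binding protein, listed for LPS alone, and the parts of these in a difference cannot be told apart. LPS+IFG differed from LPS in 0 Rab genes at 1 h (background 0.966%, 2 at an unadjusted p under 0.05), 4 higher at 2 h (2.53%) and 2 higher at 4 h (3.86%). LPS+2MA differed in 0 at 1 h (0.0776%), 0 at 2 h (0.0603%) and 1 lower at 4 h (0.319%), with 0, 3 and 3 at an unadjusted p under 0.05. In all, 5 of 41 were called in some combination, beside 5.81% of features.

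Rab20 was in 3 of these calls. It stood 0.72 (SE 0.18) higher with LPS+IFG than with LPS at 2 h and 0.70 (SE 0.18) higher at 4 h (limma adjusted p = 0.0199 and 0.015). With LPS+2MA minus LPS the difference at 4 h was -0.78 (SE 0.18, limma adjusted p = 0.0406). The other calls were rises over LPS in Rab11a (0.48, SE 0.13), Rab12 (0.42, SE 0.12) and Rab9 (0.60, SE 0.16) at 2 h and in Rab10 (0.44, SE 0.11) at 4 h. In each but Rab11a the sets of the combination and of LPS did not overlap. The same sets gave the calls, so this is no further support for them.

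These differences are near the limit of the data. The Rab20 differences with LPS+IFG were lost without LPS set 3 (0.54 at 2 h and 0.46 at 4 h) or LPS+IFG set 1 (0.48 and 0.58). The difference with LPS+2MA was lost without any 1 of 5 sets (-0.63 to -0.82). With arrays scaled to a common spread all Rab20 differences were lost (0.49, 0.47 and -0.61). They were also lost in a fit of the compared conditions alone. The differences of Rab9 and Rab12 were lost without any 1 of 5 sets each (0.52 to 0.68 and 0.32 to 0.47), that of Rab11a without any 1 of 4 (0.38 to 0.44), and that of Rab10 without LPS set 3 (0.40) or LPS+IFG set 1 (0.36). Same-numbered sets deviated together in the combinations and LPS. A fit with the set as a replicate block raised the count called in some combination from 5 to 8, with no background share given. It added the mean of Rab3d at 1 h (0.48, limma adjusted p = 0.00586), whose probes differed by -0.02 and 0.98 from LPS. It also added Rab19 (0.51, limma adjusted p = 0.0193) and Rab32 (-0.57, 0.0032) at 2 h and Rab12 (0.31, 0.0333) at 4 h for LPS+IFG, and Rab19 (0.55, 0.0284) at 4 h for LPS+2MA.

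The 4 h ratio was set against the 1 h ratio within each treatment. In total 14 of 41 differed in at least 1 treatment, beside 26.4% of features. LPS had 7 higher and 1 lower at 4 h (background 13.8%), LPS+IFG 9 higher and 2 lower (18%) and LPS+2MA 7 higher and 3 lower (17.9%). IFG had 1 higher (4.45%), which was Rab12 at 0.62 (SE 0.12, limma adjusted p = 0.000495). 2MA had 0 (0.284%), with 5 at an unadjusted p under 0.05.

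Past 2-fold were Rab19 with LPS (1.26, SE 0.21), LPS+IFG (1.26, SE 0.21) and LPS+2MA (1.72, SE 0.21), Rab32 with LPS (1.02, SE 0.18) and LPS+IFG (1.45, SE 0.18), and Rab20 with LPS+IFG (1.46, SE 0.18). Rab31 moved the other way, by -0.79 (SE 0.14) with LPS and -0.72 (SE 0.12) with LPS+2MA.

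The genes called in none of the 15 conditions were Rab1a, Rab1b, Rab2a, Rab3b, Rab3c, Rab4b, Rab5c, Rab6a, Rab11b, Rab17, Rab18, Rab24, Rab25, Rab27b, Rab33a, Rab33b, Rab37 and Rab38. The condition means of these 18 genes ran from -0.50 to 0.30. This does not show that they are unchanged, since the median SD of a Rab gene in a condition was 0.16. Several of them, among them Rab17, Rab25, Rab3b and Rab3c, are known from epithelial or neuronal cells. With the replicate block Rab33b was called lower at 1 h of LPS+IFG (-0.38, limma adjusted p = 0.0264).

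The partners of the Rab proteins were described from lists of measured genes, by counts at 4 h of LPS+IFG. Of 12 small GTPases of the Arf, Arl and Sar families, 7 rose and 1 fell, with a median of 0.47 beside -0.01 for all features. Of all features 14.9% rose and 18.5% fell there, against which this and the counts that follow are read. Of 36 SNAREs and fusion factors, 11 rose and 5 fell (median 0.06). Of 22 exchange factors 5 rose and 5 fell, of 35 effectors 8 rose and 7 fell, and of 11 GTPase-activating proteins 2 rose and 3 fell. Of 7 genes for prenylation, membrane extraction and escort, 1 rose and 1 fell.

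Stx11, a syntaxin of immune cell secretion, was the most raised partner. It rose with LPS to 1.95 ± 0.25, 2.83 ± 0.31 and 2.62 ± 0.50 at 1, 2 and 4 h and reached 3.16 ± 0.33 at 2 h of LPS+IFG (limma adjusted p = 8.55e-20). Other raised fusion genes were Stxbp3 (1.63 ± 0.38) and Stx3 (1.52 ± 0.34) at 4 h of LPS+IFG, and Stx6 (1.32 ± 0.22) at 4 h of LPS+2MA.

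Among activators, Rabgef1, an exchange factor for Rab5, was raised past 2-fold in all 9 conditions with LPS, from 1.04 ± 0.29 to 1.60 ± 0.52. Rin2, another Rab5 exchange factor, rose to 1.90 ± 0.57 at 4 h of LPS+IFG and Dennd6b to 1.63 ± 0.35 at 4 h of LPS+2MA. Madd, an exchange factor for Rab3 and Rab27, fell to -1.10 ± 0.10 at 4 h of LPS+2MA. Of the GTPase-activating proteins, Tbc1d15, which acts on Rab7, fell to -1.30 ± 0.07 and Grtp1 to -1.17 ± 0.33 at 4 h of LPS+IFG, and Tbc1d1 rose to 1.12 ± 0.17 at 4 h of LPS+2MA.

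Among effectors, Inpp5b, an inositol phosphatase, rose with IFG at 4 h (1.47 ± 0.31) and with LPS+IFG at 4 h (1.73 ± 0.27). Rilpl2, a relative of the Rab7 effector Rilp, rose 2.82-fold at 2 h of LPS+2MA. Kif20a, a kinesin needed for cell division, and Nde1, a dynein regulator, fell to -1.55 ± 0.34 and -1.20 ± 0.10 at 4 h of LPS+IFG. Both are also known from cell division.

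The promoters of Rab20, Rab12, Rab32 and Rab19 are printed because these are the members past 2-fold whose promoter was available. Each is the 250 bases before the RefSeq start on GRCm38.p6, read 5′ to 3′ on the strand of the gene, in lower case with motif matches in capitals. Rab20 lies at chr8:11478641-11478890 (minus strand), Rab12 at chr17:66519671-66519920 (minus), Rab32 at chr10:10558208-10558457 (minus) and Rab19 at chr6:39381103-39381352 (plus). Rab4a, which fell past 2-fold, had no entry among the promoters used.
Rab20: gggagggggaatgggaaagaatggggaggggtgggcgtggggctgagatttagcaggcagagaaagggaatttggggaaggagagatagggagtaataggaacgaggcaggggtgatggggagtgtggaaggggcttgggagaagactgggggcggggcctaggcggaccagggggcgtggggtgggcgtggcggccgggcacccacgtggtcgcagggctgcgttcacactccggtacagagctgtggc
Rab12: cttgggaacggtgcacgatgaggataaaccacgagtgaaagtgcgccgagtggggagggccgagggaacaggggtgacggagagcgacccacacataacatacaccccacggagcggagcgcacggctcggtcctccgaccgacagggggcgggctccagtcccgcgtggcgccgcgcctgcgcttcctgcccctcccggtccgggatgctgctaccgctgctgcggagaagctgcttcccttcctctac
Rab32: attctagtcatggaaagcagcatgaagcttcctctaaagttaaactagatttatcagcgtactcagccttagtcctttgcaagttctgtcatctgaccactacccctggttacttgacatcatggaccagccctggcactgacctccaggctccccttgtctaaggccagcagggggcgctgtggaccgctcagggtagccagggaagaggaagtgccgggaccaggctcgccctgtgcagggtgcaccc
Rab19: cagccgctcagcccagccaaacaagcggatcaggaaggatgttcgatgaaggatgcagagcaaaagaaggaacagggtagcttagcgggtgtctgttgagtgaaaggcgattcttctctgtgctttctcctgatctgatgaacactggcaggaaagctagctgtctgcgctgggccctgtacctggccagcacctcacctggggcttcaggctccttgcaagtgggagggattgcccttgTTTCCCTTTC

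The motifs searched on both strands were the interferon-stimulated element ISRE, the NF-kB site, AP-1 (TGANTCA) and CRE (TGACGTCA), none of which contains another. Rab19 held an ISRE match, TTTCCCTTTC, 10 to 1 bases before its start. No match to these letters lay in the windows of Rab20, Rab12 or Rab32. Of 35 members with a promoter in the table, 1 held an ISRE match (Rab19), 2 an NF-kB match (Rab11a and Rab28), 1 an AP-1 match (Rab34) and 2 a CRE match (Rab25 and Rab5a). Of all 32851 promoters, 2.98%, 7.25%, 6.75% and 1.55% held these motifs in the same window. The units differ: members are counted as genes with a match in any of their promoters (41 in all), the background as promoters. A match is a run of letters and was not tested as a binding site.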

How the data were processed

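The values the authors deposited are log2 ratios of the channels of each array, which follows from their positive and negative range, their ceiling at 6.64 (100-fold) and a median of 0 on each array. Image reading and normalization are not given in the sources used here. Exact zeros (7.84 to 17.0% of an array) were taken as missing, signs were turned where treated RNA was in Cy3, the dye-swapped arrays of a set were averaged where both had a value, and kept probes of a gene were averaged. The correlation of a set's dye-swapped arrays over probes, after turning, had a median of 0.30 and lay above 0 in 37 of 45 pairs. It ran from -0.40 to 0.78, so the arrays of some sets disagreed. limma 3.58.1 (R 4.3.3) was fitted to the 45 replicates of 11600 features with 1 mean per condition, for 15 comparisons with untreated cells, 6 of a combination with LPS and 5 of 4 h with 1 h, with Benjamini-Hochberg adjustment in each. The fit was tested on simulated data. The stated counts come from this fit, without pairing. Same-numbered sets of a combination and LPS deviated together, each of 18 pairs correlating above 0.1 (lowest 0.12, median 0.47). The fit with the set as a replicate block is therefore given beside some of the results where it changes the call, not all. Calls lost with treated RNA in 1 dye alone are likewise given for some members, not all. Members, gene lists and tests were chosen with earlier results of these data known. Named were members past 2-fold with each set, members past 1.5-fold with mean and SD, members never called without values, up to 4 partners past 2-fold per list, and both probes of a member where they disagreed. Array number limits the precision. A further promoter motif, beside those given, is not reported here. Planned protein features were not made, since no protein table was used here. Files were read with Python 3.11.15, pandas 2.3.3 and numpy 2.4.6, and figures drawn with matplotlib 3.10.9.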

Additional observations from a re-analysis of the deposited data

Results flagged for a closer look

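The 4 h ratio differed from the 1 h ratio of the same treatment by more than 2-fold, in a test of the difference itself, for 3 Rab genes. Rab19 differed by 1.26 with LPS, 1.26 with LPS+IFG and 1.72 with LPS+2MA (log2). Rab32 differed by 1.02 with LPS and 1.45 with LPS+IFG, and Rab20 by 1.46 with LPS+IFG. All 6 differences were kept when any 1 set was left out.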

How the results depend on the processing

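Counts of Rab genes called were recomputed under 11 other settings, and 266 of 319 stayed within 1.5 times. The total of 23 genes called against untreated cells did so under each. The share of all features called under these settings, or with a set left out, is not given beside the counts below. A moved count therefore cannot be read as a change of the Rab genes alone. With treated RNA in Cy5 alone the counts became 5 and 10 at 1 and 2 h of LPS, 2 and 7 at 1 and 2 h of IFG, 9, 3 and 3 at 1, 2 and 4 h of 2MA, and 18 and 19 at 1 and 2 h of LPS+IFG. In the same arrays LPS+IFG differed from LPS in 0 at 2 h and 1 at 4 h, LPS+2MA from LPS in 0 at 4 h, and 4 h from 1 h in 2 with IFG and 6 with LPS+2MA. With treated RNA in Cy3 alone the counts became 2 and 12 for IFG at 1 and 4 h, 2, 8 and 1 for 2MA, 1 and 0 for LPS+IFG against LPS at 2 and 4 h and 0 for LPS+2MA against LPS at 4 h. A fit of the compared conditions alone gave 3 (LPS 2 h), 0 (IFG 1 h), 4 and 4 (LPS+IFG 1 and 2 h), 3 (LPS+2MA 2 h) and 0 for LPS+IFG against LPS at 2 and 4 h and LPS+2MA against LPS at 4 h. In another setting probes were fitted singly, and a gene was called by the median of its probes' adjusted p-values. There an unmoved probe can undo the call of the other, so these are not counts of single probes called. That setting gave 1 (LPS 1 h), 0 and 1 (IFG 1 and 2 h), 1 (LPS+IFG 1 h) and 0 (LPS+2MA against LPS at 4 h). A dye term on 90 arrays gave 3 (2MA 1 h), 1 (LPS+IFG against LPS at 1 h) and 1 (2MA, 4 h against 1 h). Arrays scaled to one spread gave 1 and 0 for LPS+IFG against LPS at 2 and 4 h, 0 for LPS+2MA against LPS at 4 h, and 5, 6 and 5 for 4 h against 1 h with LPS, LPS+IFG and LPS+2MA. Complete values gave 0 for LPS+2MA against LPS at 4 h. Genes called in any combination against LPS went from 5 to 1 (scaled), 1 (Cy5), 1 (Cy3), 0 (compared conditions) and 8 (replicate block), and those in any 4 h against 1 h comparison from 14 to 8 (scaled). The cause was not tested.

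With the set number as a replicate block, LPS+IFG differed from LPS in 1 Rab gene at 1 h and LPS+2MA from LPS in 2 at 4 h. The block moved no other single count by over 1.5 times.

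With each set left out in turn, the counts ran from 1 to 2, 4 to 6 and 12 to 16 for LPS at 1, 2 and 4 h, 0 to 1, 2 to 2 and 3 to 6 for IFG, 0 to 1, 0 to 0 and 0 to 0 for 2MA, 3 to 6, 7 to 7 and 18 to 19 for LPS+IFG, and 2 to 2, 5 to 7 and 15 to 16 for LPS+2MA. Against LPS they ran from 0 to 0, 1 to 2 and 0 to 3 for LPS+IFG and 0 to 0, 0 to 0 and 0 to 1 for LPS+2MA. For 4 h against 1 h they ran from 7 to 8 with LPS, 1 to 1 with IFG, 0 to 0 with 2MA, 7 to 11 with LPS+IFG and 5 to 9 with LPS+2MA. The sets that moved a count by over 1.5 times when left out were set 1 of LPS at 1 h, sets 1 and 2 of IFG at 1 h, each set at 2 h and sets 1 and 3 at 4 h, set 2 of 2MA at 1 h, sets 1 and 2 of LPS+IFG at 1 h and set 1 of LPS+2MA at 2 h. Against LPS they were each set at 2 h and LPS set 3 and LPS+IFG set 1 at 4 h for LPS+IFG, and all but LPS set 3 at 4 h for LPS+2MA. For 4 h against 1 h they were LPS+IFG set 1 at 4 h and LPS+2MA sets 2 and 3 at 1 h. Of 144 called values, 1340 of 1572 recomputed under other settings kept the call, 228 lost it and 4 turned sign. The 4 were Rab13 at 4 h of LPS+IFG (-0.26) and LPS+2MA (-0.037) in Cy5 alone and at 2 h of LPS+2MA (0.32) in Cy3 alone, and Rab5b at 4 h of LPS+2MA (0.041) in Cy3 alone. With 1 set left out 393 of 543 kept the call, 150 lost it and 0 turned sign.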
